A study of Homo sapiens with 4 samples.

Results

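Genes of the ATF4 pathway and of the response to amino acid shortage were examined in CD31+ cells that did or did not overexpress HAND1. The members were 10 genes chosen by symbol, ATF4, DDIT3, TRIB3, PHGDH, PSAT1, ASNS, SLC7A11, CHAC1, DDIT4 and SESN2, of 58229 genes in the table, and 9 of the 10 reached the level needed for testing. They were picked by name and not by a threshold on these values, but with earlier results of these data known. H1, a human embryonic stem cell line in wide use, was the source of the cells, which were collected as CD31+ cells at day 8 of hematopoietic differentiation, after activin A and BMP4 and then VEGF and bFGF. CD31 (PECAM1) lies on endothelial cells and on many early blood cells. The Control group (2 libraries) came from H1 without HAND1 overexpression and the HAND1_OE group (2 libraries) from H1 with it, and both went through the same differentiation. The study expressed HAND1, a transcription factor of mesodermal tissues, before hemogenic endothelial cells turn into blood progenitors, and asked how this affected mesenchymal genes and blood formation. How the gene was introduced, whether a clone was picked and whether replicates were separate cultures are not given in the sources used here, so p-values measure only the spread between these libraries, which may be technical.

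ATF4 is a bZIP transcription factor at the centre of the integrated stress response. When a kinase such as GCN2 (amino acid shortage), PERK (endoplasmic reticulum stress), PKR (double-stranded RNA) or HRI (heme shortage, mitochondrial stress) phosphorylates eIF2, most translation slows while ATF4 mRNA is translated better, and ATF4 then switches on genes for amino acid synthesis and import, glutathione metabolism and restraint of mTORC1. Much of the control of ATF4 is at translation and of eIF2 at phosphorylation, neither of which RNA levels show. Heme-regulated control of eIF2 is best known in red blood cell precursors.

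All levels below are FPKM, fragments scaled to transcript length and to library depth. FPKM sums differ between libraries, and the main comparison applied no further scaling, so comparisons between libraries and between genes are approximate. Values are given in the order Control replicate 1, Control replicate 2, HAND1_OE replicate 1, HAND1_OE replicate 2. Each fold change is a difference of mean log2(FPKM + 1), HAND1_OE minus Control, with its standard error (SE), which understates changes of low genes. A gene was called when its limma p-value, adjusted by Benjamini-Hochberg over the 14622 genes tested, was under 0.05. The test is two-sided. The counts behind an FPKM value are unknown, so intervals for counting error were not computed. In bulk RNA, fewer cells of a type and less RNA per cell cannot be told apart.

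FPKM summed to between 536284 and 606609 in a library, 13989 to 14542 genes reached 1 FPKM, and mitochondrially encoded genes held 7.46% to 8.93% of the sum. Depths relative to Control replicate 1 were 0.983 to 1.19, read as the most frequent FPKM ratio over single-exon genes with a single transcript. The peak of that ratio held 78 to 133 genes, so these depths are approximate. HAND1 was at 12.1 and 14.3 FPKM in Control and 520 and 517 FPKM in HAND1_OE. It rose by 5.20 on the log2 scale (SE 0.152, adjusted p = 0.00145).

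ATF4 acts with C/EBP partners at the C/EBP-ATF response element, whose core was searched as TGATGNAA on both strands of RefSeq promoters (GRCh38.p14, 250 bases before to 50 after the gene start). The letters were found in 1270 of 35116 promoters (3.62%). They were in 2 of 9 member promoters (22.2%), those of CHAC1 and ASNS, and SLC7A11 had no window here. They are printed below on the gene's strand, with capitals for the matched letters, and 3 sites from genes of other roles (SLC7A1, BCAT1 and TARS, chosen after their values were seen) are set beside them for comparison. Where the match lies on the opposite strand the capitals read TTGCATCA.
CHAC1: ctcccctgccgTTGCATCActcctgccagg
ASNS: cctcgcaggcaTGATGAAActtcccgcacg
SLC7A1: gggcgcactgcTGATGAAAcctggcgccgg
BCAT1: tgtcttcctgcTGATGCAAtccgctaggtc
TARS: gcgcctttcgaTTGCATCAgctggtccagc

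The CHAC1 stretch is at chr15:40953251-40953280 (plus strand), with the match at positions -209 to -202 from the RefSeq start and within a non-coding part of an exon of 2 longer GENCODE transcripts. The ASNS stretch is at chr7:97872458-97872487 (minus strand), with the match at positions -68 to -61 and within a non-coding part of an exon of 1 transcript. The others are at chr13:29595663-29595692 (minus strand) for SLC7A1, an importer of arginine and lysine, chr12:24949131-24949160 (minus strand) for BCAT1, an enzyme of branched-chain amino acids, and chr5:33440956-33440985 (plus strand) for TARS, the threonyl-tRNA synthetase. CHAC1 fell, as described below, whereas the ASNS groups overlapped, so the 2 members with the letters did not share a call. A match describes letters only, and binding was not measured in these data. Elements outside the window or with other letters were not searched.

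Of the 9 members tested, 1 was called lower (CHAC1), 0 were called higher and 8 were not called. Over all genes tested 2.11% were called lower and 2.04% higher. At an unadjusted p under 0.05, 2 members were lower (CHAC1 and DDIT4) and 1 was higher (PSAT1), against 10.6% and 6.82% of all genes. Both HAND1_OE libraries lay below both Control libraries for 4 of the 9 members (ATF4, CHAC1, DDIT4 and SESN2) and above them for 1 (PSAT1), beside 30.1% and 16.2% of all genes. The 9 had a median log2 fold change of -0.24, beside -0.08 for all genes. Of the 9, 7 were negative (77.8%, beside 61.3% of all genes) and 2 positive. An exact permutation test of a single gene cannot go below p = 0.333 with 2 libraries against 2.

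**Figure D1:**
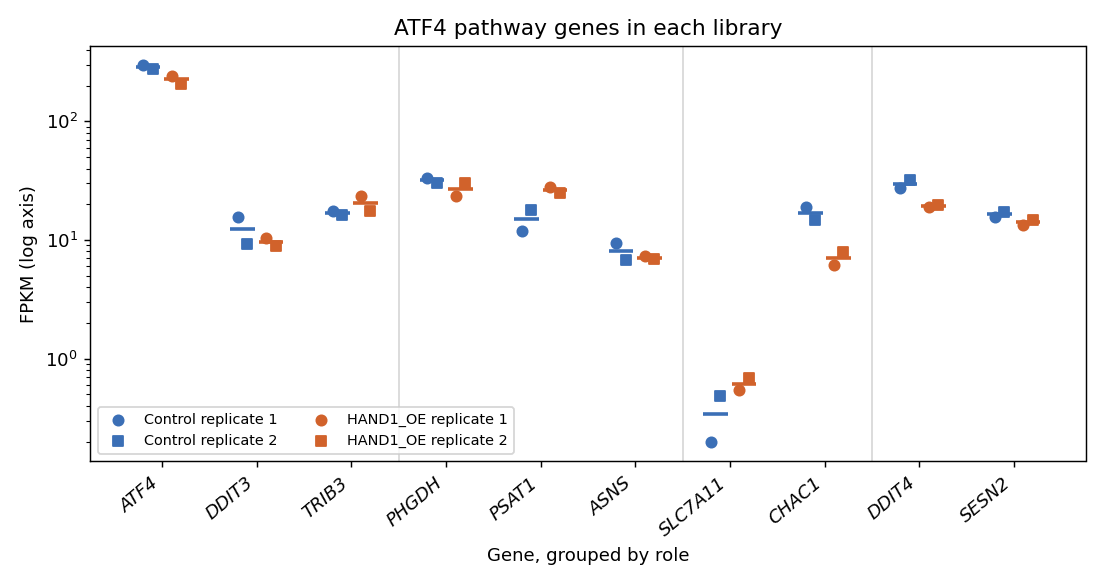
FPKM (log axis) of the 10 members in each library, circles for replicate 1 and squares for replicate 2, with a bar at each group's mean and grey lines between roles. ATF4 sits far above the rest at 208 to 299 FPKM, SLC7A11 lies below 1 FPKM, and the CHAC1 points of the groups are apart.

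Among the regulators, ATF4 itself (ENSG00000128272.14, chromosome 22, 39519695 to 39522685) was at 299, 276, 242 and 208 FPKM. Both HAND1_OE libraries were below both Control libraries, and the groups did not overlap. ATF4 averaged 288 ± 16.1 FPKM (SD, n = 2) in the Control group and 225 ± 23.9 FPKM (SD, n = 2) with HAND1, a log2 fold change of -0.36 (SE 0.162, 95% interval -0.76 to 0.05, adjusted p = 0.352), which was not called. ATF4 ranked 269 among the genes tested by mean level, above 98.2% of them, and held 61.3% to 66.7% of the summed FPKM of the 10 members in each library.

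DDIT3, which encodes CHOP, a bZIP factor that ATF4 induces under lasting stress (ENSG00000175197.11, chromosome 12, 57516588 to 57520517), was at 15.6, 9.23, 10.3 and 8.94 FPKM. Control replicate 1 stood above the other 3 libraries and the groups overlapped. Its log2 fold change was -0.30 (SE 0.261, 95% interval -0.95 to 0.35, adjusted p = 0.663), and without Control replicate 1 it was 0.05. DDIT3 overlaps MARS on the opposite strand, which reached 56.1 FPKM, and strand is not given in the sources used here, so reads in the overlap cannot be told apart.

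TRIB3, a pseudokinase that ATF4 and CHOP induce and that restrains them in turn (ENSG00000101255.10, chromosome 20, 362835 to 397559), was at 17.6, 16.2, 23.3 and 17.5 FPKM. HAND1_OE replicate 1 was the highest, while HAND1_OE replicate 2 lay within the Control range. The log2 fold change of TRIB3 was 0.25 (SE 0.186, 95% interval -0.22 to 0.71, adjusted p = 0.596). Per unit of ATF4 RNA, TRIB3 was at 0.0590, 0.0585, 0.0961 and 0.0843. This ratio was higher in both HAND1_OE libraries, in which ATF4 was itself lower, while the TRIB3 values overlapped. How many other genes lay apart when divided by ATF4 was not counted. The DDIT3 to ATF4 ratio overlapped at 0.0521, 0.0334, 0.0426 and 0.0430.

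Neither measured enzyme of serine synthesis among the members was called. PHGDH, which takes the first step from 3-phosphoglycerate (ENSG00000092621.12, chromosome 1, 119648411 to 119744226), was at 33.2, 30.2, 23.3 and 30.3 FPKM. HAND1_OE replicate 1 was lowest and HAND1_OE replicate 2 lay between the Control libraries. The log2 fold change was -0.24 for PHGDH (SE 0.18, 95% interval -0.69 to 0.20, adjusted p = 0.586).

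PSAT1, the aminotransferase that takes the next step (ENSG00000135069.13, chromosome 9, 78297143 to 78330093), was at 12, 17.8, 27.7 and 24.7 FPKM. The groups were apart, with HAND1_OE the higher. PSAT1 averaged 14.9 ± 4.11 FPKM (SD, n = 2) in the Control group and 26.2 ± 2.12 FPKM (SD, n = 2) with HAND1, a ratio of 1.75. Its log2 fold change of 0.79 (SE 0.217, 95% interval 0.25 to 1.34) had an unadjusted p = 0.012 in limma and an adjusted p = 0.136, and PSAT1 was called in 0 of 12 refits. The ratio of PSAT1 to PHGDH was 0.362, 0.591, 1.19 and 0.814, so PSAT1 RNA was below PHGDH RNA in both Control libraries and above it in HAND1_OE replicate 1.

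ASNS, which makes asparagine from aspartate and glutamine (ENSG00000070669.16, chromosome 7, 97852118 to 97872542), was at 9.38, 6.80, 7.27 and 6.89 FPKM. The HAND1_OE libraries both lay between the Control libraries. For ASNS the log2 fold change was -0.16 (SE 0.199, 95% interval -0.65 to 0.34, adjusted p = 0.779), and it was 0.05 without Control replicate 1. ASNS overlaps AC079781.5, a processed transcript on the same strand that reached 2.53 FPKM, and how reads were divided between them was not tested. Rows of processed or unprocessed pseudogenes of ATF4, ASNS and PSAT1 reached at most 0.892 FPKM, and at most 2.36% of the parent gene in a library. Reads were shared out by an estimate, so these rows cannot show how many were misassigned.

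Of the genes of cystine import and glutathione breakdown, CHAC1 was called and SLC7A11 was too low to test. SLC7A11, the cystine carrier of system xc- (ENSG00000151012.13, chromosome 4, 138164097 to 138242349), was at 0.197, 0.485, 0.540 and 0.693 FPKM. It was under 1 FPKM in every library and so was not tested in the main comparison, although both HAND1_OE values were the higher. With all genes above 0 tested its log2 fold change was 0.28 (95% interval -0.18 to 0.74, adjusted p = 0.615).

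CHAC1, a gamma-glutamylcyclotransferase that breaks down glutathione and is a well known ATF4 target (ENSG00000128965.11, chromosome 15, 40952962 to 40956519), was at 18.8, 14.8, 6.15 and 7.91 FPKM. Both HAND1_OE libraries lay below both Control libraries, and the gap between groups was wider than the spread within either, in which replicates differed by 1.27-fold in Control and 1.29-fold in HAND1_OE. CHAC1 fell from 16.8 ± 2.80 FPKM (SD, n = 2) to 7.03 ± 1.25 FPKM (SD, n = 2), which is 2.39-fold lower by the means, a log2 fold change of -1.15 (SE 0.2, 95% interval -1.65 to -0.65, adjusted p = 0.0425). The fall kept its direction in all 12 refits, from -1.31 to -0.99, and the call was kept in 9. It was lost with every gene above 0 tested (adjusted p = 0.215), with libraries scaled to equal sums (adjusted p = 0.0505) and without Control replicate 1 (adjusted p = 0.085). The ratio of CHAC1 to ATF4 was 0.0628, 0.0536, 0.0254 and 0.0380, lower in both HAND1_OE libraries. ATF4 was 1.28-fold lower by the means, less than CHAC1, so this ratio is not separate from the fall of CHAC1. How many other genes lay apart by such a ratio was not counted.

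The inhibitors of mTORC1 were both lower in HAND1_OE, with neither called. DDIT4, also named REDD1, acts through the TSC complex (ENSG00000168209.4, chromosome 10, 72273920 to 72276036) and was at 27.4, 31.7, 19.0 and 19.8 FPKM. The groups were apart, with HAND1_OE the lower. Means of 29.5 ± 3.05 FPKM (SD, n = 2) without and 19.4 ± 0.515 FPKM (SD, n = 2) with HAND1 gave a log2 fold change of -0.58 (SE 0.152, 95% interval -0.96 to -0.20), with an unadjusted p = 0.0102 in limma and an adjusted p = 0.122. DDIT4-AS1, on the opposite strand, was at most 9.85e-06 FPKM, but with strand not given, reads in the overlap cannot be told apart.

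SESN2, a leucine sensor that holds back mTORC1 through GATOR2 (ENSG00000130766.4, chromosome 1, 28259527 to 28282491), was at 15.5, 17.3, 13.4 and 14.7 FPKM. Both HAND1_OE libraries were just below both Control libraries. SESN2 had a log2 fold change of -0.21 (SE 0.155, 95% interval -0.59 to 0.18, adjusted p = 0.589). The ratio of DDIT4 to SESN2 was 1.77, 1.83, 1.42 and 1.34, lower in both HAND1_OE libraries. How many other pairs of genes lay apart by their ratio was not counted.

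**Figure D2:**
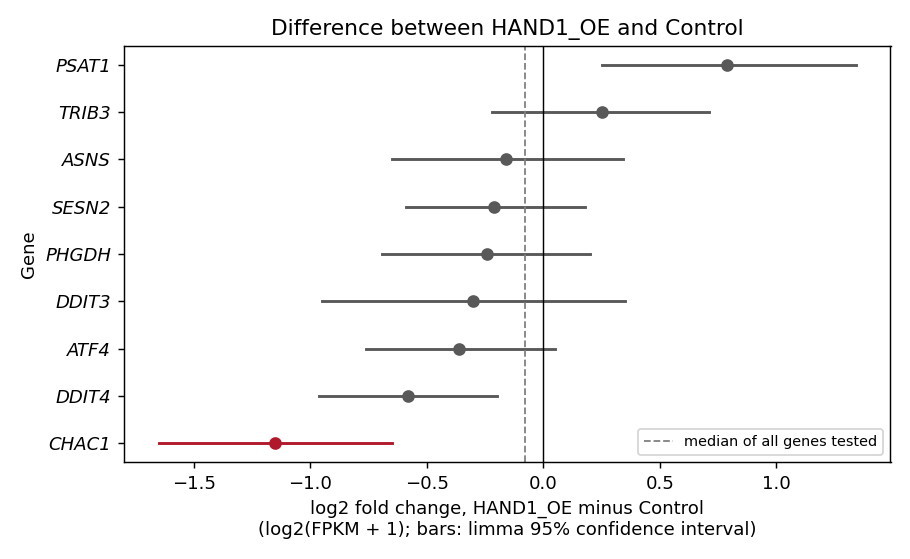
Log2 fold change (HAND1_OE minus Control, log2(FPKM + 1)) of the 9 members tested, with 95% intervals from limma and a dashed line at the median of all genes tested. The intervals of CHAC1 (-1.65 to -0.65), DDIT4 (-0.96 to -0.20) and PSAT1 (0.25 to 1.34) do not reach 0, and CHAC1 alone was called after adjustment over all genes.

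The order of levels differed in part between the groups. In Control, ATF4 was followed by PHGDH (31.7 FPKM) and DDIT4 (29.5 FPKM), whose ranges overlapped. TRIB3, CHAC1, SESN2, PSAT1, DDIT3 and ASNS came next, each overlapping its neighbour, and SLC7A11 was last (0.341 FPKM). In HAND1_OE, ATF4 was followed by PHGDH (26.8 FPKM) and PSAT1 (26.2 FPKM), which overlapped, then by TRIB3 and DDIT4, which overlapped, then by SESN2 and DDIT3. ASNS (7.08 FPKM) and CHAC1 (7.03 FPKM) overlapped above SLC7A11 (0.616 FPKM), so CHAC1 stood at place 5 of 10 in Control and place 9 in HAND1_OE, and PSAT1 at place 7 and then place 3.

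**Figure D3:**
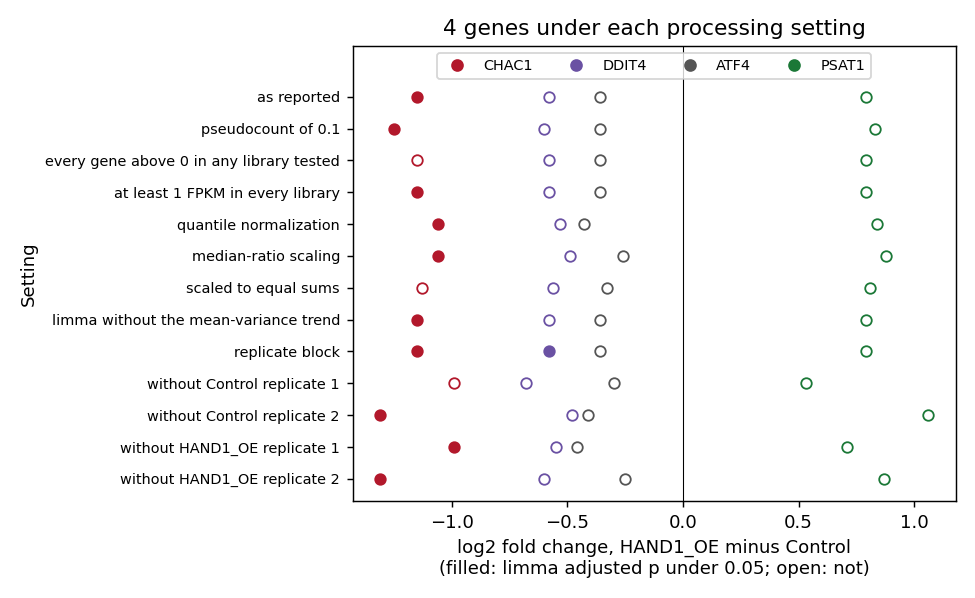
Log2 fold change (HAND1_OE minus Control) of CHAC1, DDIT4, ATF4 and PSAT1 under each analysis setting, 1 row per setting, filled where the limma adjusted p is under 0.05 and open where it is not. CHAC1 runs from -1.31 to -0.99, DDIT4 from -0.68 to -0.48, ATF4 from -0.46 to -0.25 and PSAT1 from 0.53 to 1.06, and no gene crosses 0.

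The pathway around the members was read from 12 lists of 130 genes in all, with the members left out. Of these 124 were tested, of which 2 were called higher, 2 lower and 120 not called (1.61% each way, beside 2.04% and 2.11% of all genes). Their median log2 fold change was -0.03. Called genes were thus about as frequent as among all genes.

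Upstream of ATF4, 0 of 14 genes of the eIF2 kinases, eIF2, eIF2B and phosphatase subunits were called. Before adjustment 1 was higher and 1 lower (limma p under 0.05), beside 6.82% and 10.6% of all genes. EIF2AK1, the heme-regulated kinase HRI, was at 32.1, 49.1, 23.3 and 28.6 FPKM, with HAND1_OE below Control (log2 fold change -0.60, adjusted p = 0.283). EIF2AK4, the amino acid sensor GCN2, was at 16.5, 15.6, 16.8 and 15.1 FPKM, with overlapping groups and a fold change of -0.01 whose sign changed with scaling. EIF2AK2 (PKR, 0.24, adjusted p = 0.736) and EIF2AK3 (PERK, -0.23, adjusted p = 0.733) overlapped too. PPP1R15A (GADD34), which recruits the eIF2 phosphatase, was at 130, 138, 128 and 111 FPKM (log2 fold change -0.17, adjusted p = 0.677).

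Among partner bZIP factors and tribbles, 1 of 7 tested was called. CEBPB, a C/EBP factor that pairs with ATF4 and also a regulator of myeloid cells, was at 20.5, 24.2, 8.56 and 9.16 FPKM and fell by 1.24 on the log2 scale (SE 0.161, adjusted p = 0.0214). In serine, glycine and folate metabolism, 1 of 7 tested was called. GLDC, which splits glycine, rose from 1.12 and 1.44 to 6.08 and 4.84 FPKM (log2 fold change 1.50, SE 0.205, adjusted p = 0.0246). These genes lay apart between the groups, and CEBPB was low and GLDC high in both HAND1_OE libraries.

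Among amino acid transporters, 1 of 10 tested was called. SLC1A4, an exchanger of alanine, serine and cysteine, was at 21.3, 30.3, 5.07 and 6.63 FPKM and fell by 1.96 on the log2 scale (SE 0.228, adjusted p = 0.0159). SLC7A1 was at 5.10, 6.13, 11.2 and 10.2 FPKM (log2 fold change 0.82, adjusted p = 0.0689), so the transporters that lay apart did so in both directions. Of the 6 NRF2 genes 1 was called, NQO1, a quinone reductase, which rose from 8.58 and 8.5 to 30 and 23 FPKM (log2 fold change 1.51, SE 0.181, adjusted p = 0.0168). HMOX1, of the same list, lay apart the other way (log2 fold change -0.69, adjusted p = 0.0735). The NRF2 list had 3 positive and 3 negative genes. With every gene above 0 tested, the adjusted p-values of CEBPB, GLDC, SLC1A4 and NQO1 ran from 0.153 to 0.178, and 0 genes of the table were called.

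The remaining lists had 0 calls. Their counts before adjustment stand beside 6.82% of all genes higher and 10.6% lower (limma, unadjusted p under 0.05). The 20 cytosolic aminoacyl-tRNA synthetases spanned -0.25 to 0.18 with a median of -0.08 and a smallest adjusted p of 0.462, and 0 had an unadjusted p under 0.05 in limma. TARS was at 44.5, 39.9, 34.8 and 35.5 FPKM (-0.25). The letters of the C/EBP-ATF element were in 6 of the 16 synthetase promoters with a window (37.5%). Other amino acid synthesis enzymes (11 tested) had a median of -0.03 with 1 higher and 3 lower before adjustment. Cysteine and glutathione enzymes (9 tested) had a median of -0.04, with 0 in either direction.

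Sestrins and mTORC1 regulators (9 tested) had a median of -0.05, with 1 lower before adjustment. Targets of CHOP and secreted stress proteins (7 tested) had a median of 0.11, with 1 higher and 2 lower. The endoplasmic reticulum unfolded protein response (15 tested) shares PERK with the ATF4 pathway but also uses ATF6 and XBP1. Its genes had a median of 0.17, with 11 positive and 4 negative (26.7%, beside 61.3% of all genes), and 1 higher and 1 lower before adjustment. Mitochondrial stress genes (9 tested) had a median of -0.11 with 8 negative (88.9%, beside 61.3% of all genes) and 1 positive, and 0 at an unadjusted p under 0.05. Over all members and lists, 18 genes with the letters in their promoter were tested, and their median was -0.14, beside -0.08 for all genes. Of the 18, 0 were called higher and 1 lower, the member CHAC1 already described, beside 2.04% and 2.11% of all genes. There were 12 negative and 6 positive, where 61.3% of all genes were negative.

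**Figure D4:**
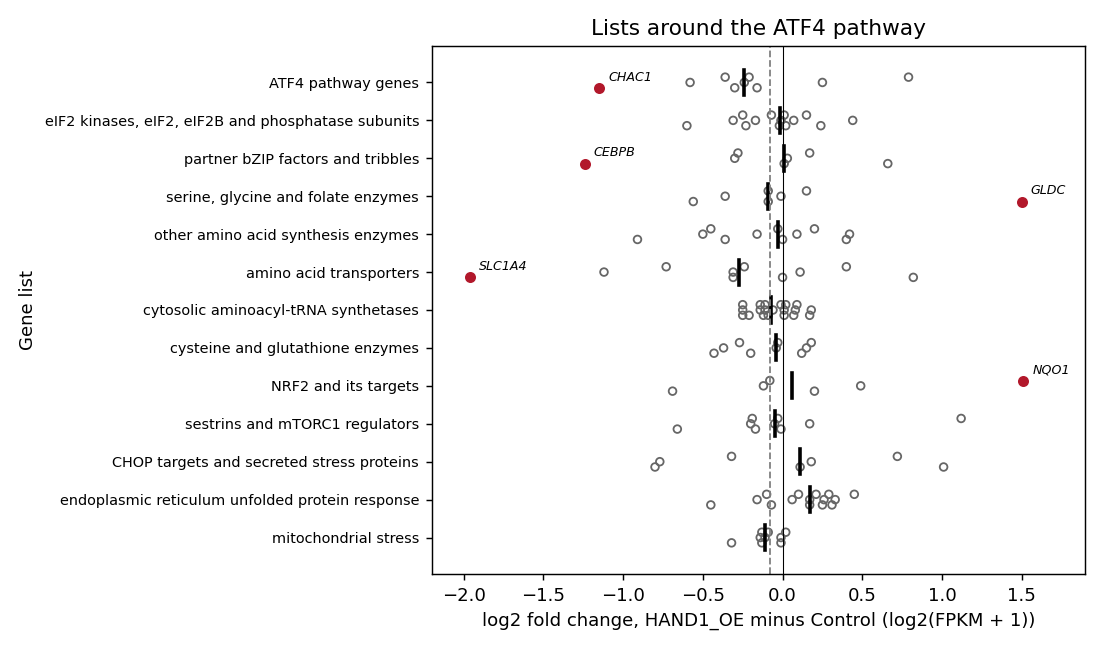
Log2 fold change of each tested gene of the members (top row) and the 12 pathway lists, 1 point per gene, filled where called, with a short bar at each list's median and a dashed line at the median of all genes tested (-0.08). SLC1A4 (-1.96) and CEBPB (-1.24) lie at the low end and NQO1 (1.51) and GLDC (1.50) at the high end.

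Genes of other cell types moved with the groups, and their part in the values above was not tested. Calls in the marker lists stand beside 2.11% of all genes called lower and 2.04% called higher. Of the endothelial genes, PECAM1 was at 95.5, 141, 92.0 and 160 FPKM and CDH5 at 261, 222, 257 and 280 FPKM, with overlapping groups. TIE1 was at 311, 278, 219 and 251 FPKM and KDR at 272, 268, 251 and 267 FPKM, lower in both HAND1_OE libraries and not called. Summed over 8 endothelial genes, FPKM were 1451, 1271, 1221 and 1330, with 1 called lower, CLDN5, at 85, 66.1, 15.2 and 14.3 FPKM. Both HAND1_OE libraries lay below both Control libraries for 3 of the 8 (37.5%, beside 30.1% of all genes) and above them for 0.

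Most blood marker genes were far lower in HAND1_OE. The 10 erythroid genes summed to 868, 1249, 67.0 and 54.4 FPKM, with 9 called lower, HBE1, an embryonic globin, being at 175, 295, 11.8 and 11.1 FPKM. The 6 megakaryocyte genes, with ITGA2B at 92.4, 115, 10.3 and 5.33 FPKM, summed to 153, 193, 15.2 and 9.14 FPKM, and all 6 were called lower. PF4 was at 0 in HAND1_OE replicate 2.

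Myeloid genes summed to 120, 89.2, 12.3 and 6.55 FPKM, with 4 of the 4 tested called lower, and MPO was at 0 in Control replicate 2 and HAND1_OE replicate 2. Pan-hematopoietic genes summed to 48.3, 48.9, 10.3 and 15.4 FPKM, with 4 of the 6 tested called lower, and PTPRC was at or near 0 in every library. LCP1 did not follow, at 7.07, 8.47, 3.3 and 9.78 FPKM, with overlapping groups. It held most of the list's sum in HAND1_OE replicate 2.

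Mesenchymal and stromal genes summed to 277, 207, 493 and 400 FPKM, and 3 of the 6 tested were called higher, PDGFRB (7.92, 5.09, 32.6 and 25.9 FPKM), POSTN and LUM. Much of that sum was COL3A1 at 160, 97.9, 325 and 241 FPKM, which was not called (adjusted p = 0.1), while COL1A1 was at 89.9, 79.7, 70 and 74 FPKM, lower in both HAND1_OE libraries and not called. The list was therefore mixed. Cardiac muscle genes summed to 115, 105, 30.8 and 30.7 FPKM with 1 of 5 called, MYL4, which was lower at 68.1, 75.9, 4.68 and 3.85 FPKM and held most of the sum in Control. TNNT2 lay the other way, at 1.39, 1.64, 3.5 and 6.37 FPKM, and was not called (adjusted p = 0.0914). Pluripotent genes summed to 63.2, 70.6, 33.1 and 45.3 FPKM with 0 of 3 tested called, and SOX2 was at or near 0 in every library, at most 0.0622 FPKM. The fall of CHAC1, CEBPB and SLC1A4 and the rise of GLDC and NQO1 thus came in libraries that also differed in other genes. These were blood and stromal marker genes, and the cardiac muscle and pluripotent sums differed too.

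**Figure D5:**
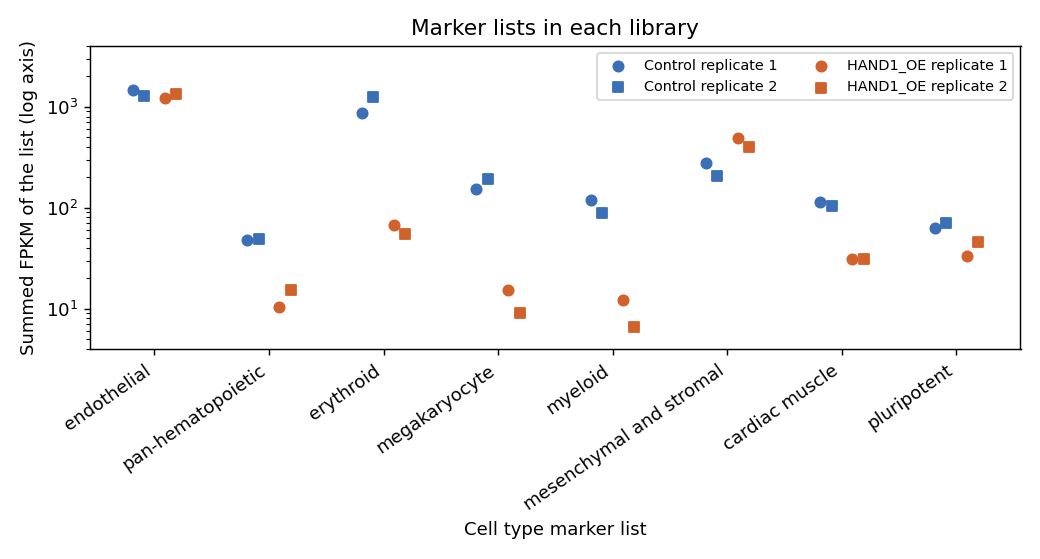
Summed FPKM (log axis) of each marker list in each library. Erythroid, megakaryocyte, myeloid and pan-hematopoietic sums are lower in both HAND1_OE libraries, as are the cardiac muscle and pluripotent sums. The mesenchymal and stromal sums, much of them COL3A1, are higher, and endothelial sums overlap.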

How the data were processed

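RNA was sequenced from total RNA (TruSeq kit) of 4 libraries, 2 Control and 2 HAND1_OE, grouped by sample title. The authors deposited 1 table of values per gene and library, taken as FPKM because the study plots that unit and the values are not whole and do not sum to a fixed total. RSEM, Bowtie, BWA and hg19 are named in the submitters' processing notes, without versions, but 99.8% of the 55681 rows matched by versioned ID to GENCODE release 29 had equal GRCh38 coordinates. Starts, counted from 0 in the table, are given from 1. In each library 667 to 681 genes lay above 0 but under 0.0001 FPKM, which is less than a whole fragment gives and shows that reads were shared out by an estimate. Of 58365 rows, 45 for Y copies of pseudoautosomal genes and 91 sharing a gene ID with a higher row were left out.

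The test was run on log2(FPKM + 1) with limma 3.58.1 under R 4.3.3, using a mean-variance trend, on genes that reached 1 FPKM in 2 or more libraries. It was two-sided, with Benjamini-Hochberg adjustment. The code was tested on simulated data. Alternatives were a pseudocount of 0.1, every gene above 0, a minimum of 1 FPKM in all libraries, median-ratio scaling, quantile normalization, scaling to equal sums, no trend, the replicate number as a block, a fold change of at least 2 and each library left out. The refits counted for single genes are the 12 other than the fold threshold.

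The members and lists were chosen with earlier results of these data known. Named genes were the members, HAND1, up to 3 called genes per pathway list with the largest changes, the 4 eIF2 kinases with PPP1R15A, and up to 2 defining genes per marker list. A symbol with several rows kept the one with the highest mean. Other named genes were chosen after their values were seen. A single gene of the erythroid marker list enters its sum and count but is not reported here by name. Motifs were searched in RefSeq promoters (GRCh38.p14).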

Additional observations from a re-analysis of the deposited data

How the results depend on the processing

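Of the members, 1 was called lower, but 0 were with every gene above 0 tested or with libraries scaled to equal sums, and 0 to 1 on leaving out a library (0 without Control replicate 1). With the replicate number as a block 2 were, CHAC1 (adjusted p = 0.0447) and DDIT4 (0.0428), and 597 genes of the table were called higher and 712 lower. The block also brought GLUL (0.0298), BBC3 (0.0225), HMOX1 (0.0367) and SLC7A1 (0.0481) under the threshold. The labels give the shared numbers no meaning and there are 2 pairs (correlation of deviations 0.383), so the libraries were not treated as paired. The members' median was -0.154 after median-ratio scaling, which moved the median of all genes from -0.078 to 0.002, and -0.362 to -0.177 on leaving out a library. With every gene above 0 tested, 0 genes were called higher and 0 lower, and HAND1 kept 5.20 (adjusted p = 0.153), in a fit of 29860 genes in which limma's prior degrees of freedom were 1.32 in place of 3.61. Leaving out a library, DDIT3 ranged from -0.65 to 0.05, ASNS from -0.36 to 0.05, EIF2AK2 from -0.10 to 0.58, EIF2AK3 from -0.49 to 0.03 and EIF2AK4 from -0.08 to 0.06. EIF2AK4 was 0.04 after quantile normalization, 0.08 after median-ratio scaling and 0.01 with equal sums. The cause of these changes was not tested.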

Other observations

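Other genes near the threshold were chosen after their values were seen. GLUL, glutamine synthetase, was at 171, 181, 79.0 and 109 FPKM (log2 fold change -0.91, adjusted p = 0.0739). BBC3, which encodes the pro-apoptotic protein PUMA, was at 23.4, 25.8, 13.2 and 14.4 FPKM (-0.80, adjusted p = 0.0533), and HMOX1, heme oxygenase, at 14.3, 14.0, 8.33 and 8.41 FPKM (-0.69, adjusted p = 0.0735). The glycine transporter SLC6A9 was at 3.76, 4.91, 1.73 and 1.19 FPKM (-1.12, adjusted p = 0.0614). In all of these both HAND1_OE libraries lay below both Control libraries, as for 30.1% of all genes, and none was called in the main comparison. SLC7A1, described above, was also near the threshold and went the other way (0.82, adjusted p = 0.0689). GLUL was called without HAND1_OE replicate 2 (-1.14, adjusted p = 0.0259), and SLC6A9 without HAND1_OE replicate 1 (-1.28, adjusted p = 0.0277) and with 1 FPKM required in every library (adjusted p = 0.0403).

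The endoplasmic reticulum stress element, read as an exact pattern of the letters CCAAT and CCACG with 9 bases between them, was in 27 of 35116 RefSeq promoters (0.0769%), in 0 of 9 member promoters and in 4 of 15 promoters of the unfolded protein response list (26.7%). The median log2 fold change of all 15 genes of that list was 0.17, with 0 called. Genes with the element were not summarised apart, and a link between the element and the values was not tested.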
